A study of Homo sapiens with 11 samples.

Results

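WM1119 was compared with vehicle in R183W HEC50B cells, using 2 libraries with the inhibitor and 3 without it, 5 of the 11 libraries in the series. The 5 were taken by their labels, and the response was described over 13980 tested genes of the 57736 gene IDs in the table. HEC50B cells come from a human endometrial carcinoma and are an established line. By their labels both groups are parental cells with the PPP2R1A substitution R183W. A comparator line, labelled CRISPR WT for PPP2R1A, had 3 libraries with each treatment. The cells were given vehicle or 50 µM WM1119 and collected after 4 days, and KAT6A is labelled active in the former and inhibited in the latter. The labels name neither the vehicle nor the number of clones in the WT line. They number the replicates without saying that they were separate cultures, so p-values measure only the spread between these libraries, which may be technical.

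KAT6A, also called MOZ, is a lysine acetyltransferase of the MYST family. It acetylates histone tails in a complex with a BRPF scaffold protein and is known for keeping developmental genes active and for holding back senescence. WM1119 competes with acetyl coenzyme A at the active site and also acts on the paralog KAT6B. PPP2R1A encodes the scaffold subunit of the phosphatase PP2A, which joins the catalytic subunit to the regulatory subunits that choose substrates, and it is recurrently mutated in uterine cancers.

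The 5 libraries held 3323979 to 6065149 counts, so a count of 0 allowed 0.495 to 0.906 CPM in a single library, taking 3 counts as the floor. CPM is a gene's count divided by the library total, which TMM factors scale, and multiplied by 1000000. Floors and intervals cover counting error only. Levels are listed in the order of vehicle libraries 1, 2 and 3 and then WM1119 libraries 1 and 2. In a principal component analysis of the 5 libraries the first component held 51.5% of the variance and put the vehicle libraries at -32.3 to -22.6 and the WM1119 libraries at 36.6 and 49.4. Replicate pairs of the 2 groups differed by more than sampling noise, with a chi-square of 2.66 to 7.2 for each degree of freedom. WT WM1119 library 3 stood apart from its group, with log CPM correlations of 0.917 and 0.937 across genes, against 0.957 to 0.975 for the other replicate pairs. It takes no part in the R183W contrast but enters the spread that the 4 groups share. KAT6A itself stood at 200, 159 and 152 CPM with vehicle and 184 and 174 CPM with WM1119 (log2 change 0.07, SE 0.20, edgeR adjusted p = 0.895), and the groups overlapped. KAT6B read 34, 44.5 and 37.9 CPM with vehicle and 58.8 and 62.8 CPM with WM1119 (log2 change 0.65, SE 0.21, edgeR adjusted p = 0.101), and both WM1119 libraries lay above the 3 vehicle libraries without passing the test. PPP2R1A read 36.5, 31 and 35.3 CPM with vehicle and 33.1 and 26.9 CPM with WM1119 (log2 change -0.19, SE 0.20, edgeR adjusted p = 0.65), also with overlap, and gene counts show neither the substitution nor acetyltransferase activity.

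Markers of endothelial and immune cells were at low levels. The summed endothelial markers gave 0.66 to 0.856 CPM with vehicle and 0 with WM1119, and 4 of 8 immune markers had 0 counts in all 5 libraries while the rest summed to 3.45 to 8.41 CPM with vehicle and 3.62 to 5.52 CPM with WM1119. Among fibroblast markers DCN and COL3A1 were at 0, while COL1A1 made up most of the 829 to 1050 CPM with vehicle and 653 to 655 CPM with WM1119. Of the epithelial markers, KRT8 and KRT18 were high, KRT19 was at 0 and CDH1, E-cadherin, read under 1 CPM in each library, and the list summed to 1650 to 1850 CPM with vehicle and 1630 CPM with WM1119. Of the endometrial lineage markers PAX8 was high, while ESR1, PGR and SOX17, which endometrial epithelium usually carries, had 0 counts in all 5 libraries, and the list summed to 487 to 560 CPM with vehicle and 516 to 579 CPM with WM1119. In bulk libraries fewer cells of a type and less RNA per cell cannot be told apart.

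WM1119 raised 281 genes (2.01% of those tested) and lowered 379 (2.71%) in R183W cells, 660 in all (4.72%). At least 2-fold changes made up 147 of the higher (1.05% of genes tested) and 238 of the lower calls (1.7%). The called genes had a median log2 change of 1.02 upward and -1.27 downward, against a median of 0.00 and a middle 50% of -0.33 to 0.32 over all genes. The 5% most lowered of the genes called lower had changes of -4.06 or beyond, while the same share of the genes called higher began at 2.10. Groups that did not overlap are common at this size: both WM1119 libraries lay above the 3 vehicle libraries for 23.2% of genes and below them for 23.6%. The test was edgeR's quasi-likelihood test with Benjamini-Hochberg adjustment. The threshold for a call was an adjusted p of 0.05. Simulated counts for this comparison covered 13595 genes, of which 67 were changed 1.5-fold, 67 2-fold and 66 4-fold. The changed genes lay above 2 CPM, and the test recovered 2.99%, 44.8% and 74.2% of them. It called 85 genes there, against 660 in the data. With fewer calls the adjusted threshold is stricter, so these shares cannot be carried over to the data. Leaving out R183W WM1119 library 1 or 2 left 53 and 44 genes higher and 84 and 75 lower, and leaving out R183W vehicle library 2 or 3 left 89 and 98 higher and 187 and 188 lower. The count without R183W vehicle library 1 was 170 higher and 255 lower. Leaving out WT WM1119 library 3 gave 717 and 940, and a fit of the 5 R183W libraries alone gave 1211 (9.16% of 13215 genes) and 1280 (9.69%), with 279 of the 281 and 373 of the 379 among them. Below, a call said to be lost without library 1 or 2 was lost in at least 1 of those fits. Ranges of list counts are those with each library left out in turn. None of the called genes given below with their levels had overlapping groups in R183W cells. For the 25 largest changes in each direction this was a condition of being named.

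**Figure D1:**
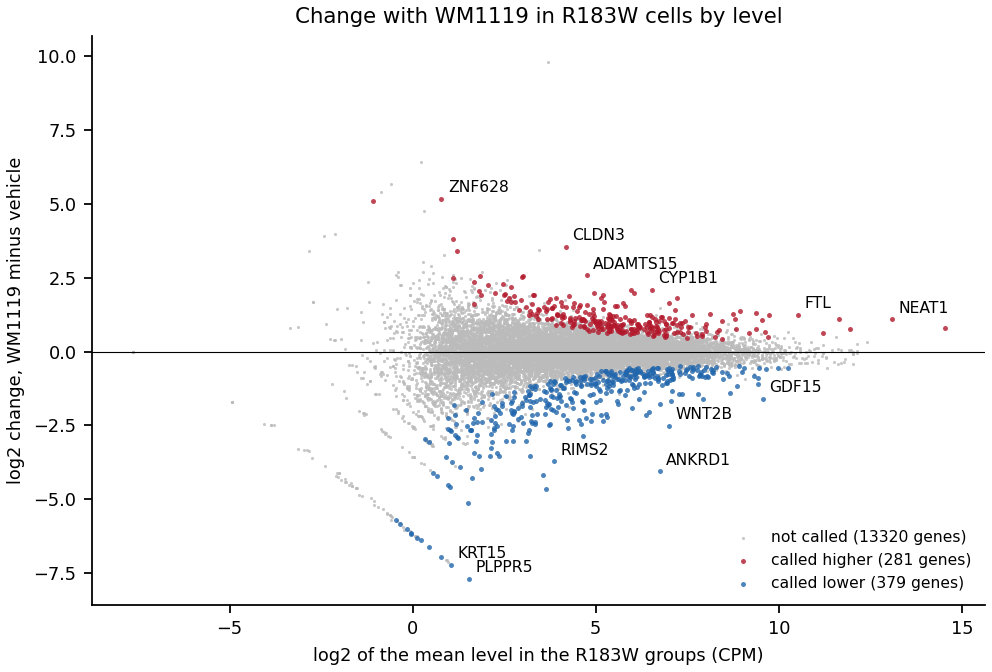
Log2 change with WM1119 in R183W cells (vertical axis) against the log2 of the mean level over the vehicle and WM1119 groups in CPM (horizontal axis), 1 point per tested gene. The 281 genes called higher are red and the 379 called lower are blue, and the diagonal run of points at the lower left holds genes with 0 counts in the WM1119 libraries, whose fitted change is no bound.

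The direction of change moved with base composition. Transcript GC had a median of 54.17% among genes called higher, 46.98% among genes called lower and 48.22% over all genes. The share called higher was 1.28% of genes under 40% GC and 3.87% of genes over 60% GC, while the share called lower was 3.16% and 2.2%. The median log2 change went from -0.07 in the lowest to 0.16 in the highest GC class. After a correction that took each library's trend with GC out, 300 genes were called higher and 404 lower. The part of base composition in the single changes below was not tested beyond that correction, which was chosen after the data were seen. Of the 47 lists with at least 3 members called in 1 direction, it moved the leading count of 2 by more than 1.5 times: antisense transcripts from 4 to 8 higher and F-box and related ligase subunits from 3 to 5 higher.

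**Figure D2:**
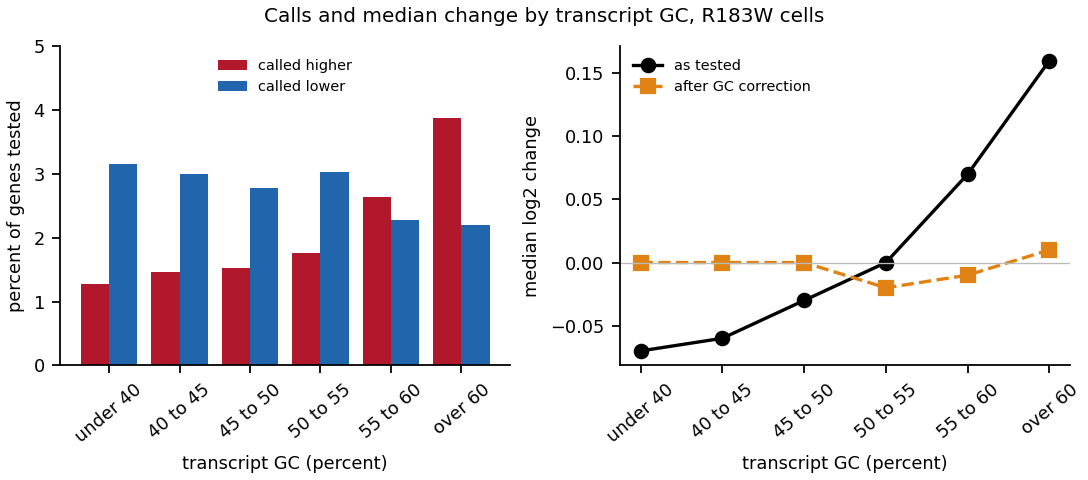
Left, percent of tested genes called higher (red) and lower (blue) in 6 classes of transcript GC percent. Right, median log2 change in the same classes as tested (black circles) and after GC correction (orange squares). The share called higher goes from 1.28% under 40% GC to 3.87% over 60% GC.

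Large increases were seen in genes of unlike function. Those given here read 1.81 to 42.6 CPM in the vehicle libraries, against a median vehicle mean of 19.41 CPM over all genes tested. CLDN3, a claudin of tight junctions, rose from 4.12, 2.35 and 1.82 CPM to 30.5 and 36.2 CPM (log2 change 3.54, SE 0.35, edgeR adjusted p = 4.61e-05). ADAMTS15, a secreted metalloprotease that cleaves proteoglycans, rose from 8.74, 5.56 and 8.72 CPM to 47.3 and 45 CPM (log2 change 2.58, SE 0.27, edgeR adjusted p = 9.9e-05). CYP1B1, a cytochrome P450 that hydroxylates oestrogens and is a known target of the aryl hydrocarbon receptor, rose from 42.6, 32.1 and 30.4 CPM to 146 and 155 CPM (log2 change 2.10, SE 0.15, edgeR adjusted p = 6.14e-06). In these genes both WM1119 libraries were several-fold above the highest vehicle library. SGK2, a serum and glucocorticoid regulated kinase, rose from 20, 26.8 and 24.3 CPM to 103 and 97.3 CPM (log2 change 2.09, SE 0.20, edgeR adjusted p = 3.28e-05). NPR1, the receptor guanylate cyclase for atrial natriuretic peptide, rose from 8.91, 17.1 and 11.8 CPM to 49.9 and 48.3 CPM (log2 change 1.97, SE 0.30, edgeR adjusted p = 0.00193). H2BC12, a replication-type histone H2B gene, rose from 16, 14.6 and 15.2 CPM to 58.6 and 56.2 CPM (log2 change 1.91, SE 0.24, edgeR adjusted p = 0.000463). Its reads are uncertain because clustered histone genes are near-identical. TMEM221, a membrane protein of little known function, rose from 2.31, 2.14 and 2.43 CPM to 11.3 and 16.3 CPM (log2 change 2.57, SE 0.41, edgeR adjusted p = 0.00283). CECR2, a bromodomain subunit of an ISWI-type chromatin remodeler, rose from 1.81, 3.21 and 1.82 CPM to 8.88 and 12.1 CPM (log2 change 2.19, SE 0.39, edgeR adjusted p = 0.00518). NEO1, a netrin receptor, rose from 3.13, 5.99 and 3.04 CPM to 15.1 and 15.7 CPM (log2 change 1.93, SE 0.35, edgeR adjusted p = 0.00579). Only genes whose groups did not overlap could be taken as largest changes. The calls of CLDN3, ADAMTS15, CYP1B1, SGK2, NPR1 and H2BC12 held with each of the 11 libraries left out in turn. Those of TMEM221, CECR2 and NEO1 were lost without R183W WM1119 library 1 or 2 (edgeR adjusted p = 0.0612 to 0.0967).

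ZNF628, a zinc finger gene, gave the largest fitted increase, with 1 count over the 3 vehicle libraries and 24 over the 2 WM1119 libraries, a ratio of 50.3 between the groups (95% counting interval 8.2 to 2070) (edgeR adjusted p = 0.00451). KCNH6, a voltage-gated potassium channel, read 0.165, 0 and 0.608 CPM with vehicle and 2.64 and 5.44 CPM with WM1119 (log2 change 3.82, SE 0.95, edgeR adjusted p = 0.0337), and ACAP1, which regulates the small GTPase ARF6, read 0.66, 0.214 and 0.203 CPM with vehicle and 4.32 and 4.23 CPM with WM1119 (log2 change 3.41, SE 0.74, edgeR adjusted p = 0.0181). Other genes among the 25 largest increases included GPR162, an orphan receptor, which rose from 1.81, 1.71 and 2.03 CPM to 7.68 and 10.6 CPM (log2 change 2.28, SE 0.41, edgeR adjusted p = 0.00539), and PDK4, which shuts off pyruvate dehydrogenase, which rose from 5.28, 3.64 and 3.45 CPM to 16.3 and 15.1 CPM (log2 change 1.91, SE 0.44, edgeR adjusted p = 0.0235). SLC6A12, a betaine and GABA transporter, rose from 3.46, 1.28 and 2.23 CPM to 9.12 and 9.36 CPM (log2 change 1.95, SE 0.45, edgeR adjusted p = 0.0224). Its neighbour SLC6A13, a gene of the same transporter family, also rose and is given with the gene pairs below. WFDC2, a secreted protein with WAP domains that is used as a tumour marker, rose from 3.96, 0.856 and 2.03 CPM to 16.8 and 10.3 CPM (log2 change 2.53, SE 0.64, edgeR adjusted p = 0.0367). The WFDC2 libraries within the vehicle group differed 4-fold or more between the lowest and the highest. All 7 calls were lost without R183W WM1119 library 1 or 2 (edgeR adjusted p = 0.0822 to 0.317). KCNH6, ACAP1, PDK4, SLC6A12 and WFDC2 were also lost without R183W vehicle library 1, 2 or 3 (0.0511 to 0.138). KCNH6 and WFDC2 were lost as well without WT WM1119 library 2 (0.0522 to 0.0538).

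The decreases reached further than the increases. ANKRD1, a muscle ankyrin repeat protein and classical YAP target, fell from 174, 222 and 209 CPM to 12.2 and 12.1 CPM (log2 change -4.05, SE 0.18, edgeR adjusted p = 1.99e-08). RIMS2, a scaffold of the presynaptic release site, fell from 29, 25.7 and 25.8 CPM to 1.92 and 2.11 CPM (log2 change -3.72, SE 0.36, edgeR adjusted p = 4.37e-05). WNT2B, a WNT ligand, fell from 216, 202 and 237 CPM to 36 and 40.2 CPM (log2 change -2.52, SE 0.15, edgeR adjusted p = 6.27e-07). IL11, a cytokine of the interleukin 6 family, fell from 18.8, 21.6 and 26.6 CPM to 1.44 and 0.906 CPM (log2 change -4.19, SE 0.50, edgeR adjusted p = 0.000279). All 4 lay far below the vehicle libraries in both WM1119 libraries. LINC01111, a long noncoding RNA, fell from 26.4, 24.8 and 21.3 CPM to 1.2 and 0.604 CPM (log2 change -4.66, SE 0.53, edgeR adjusted p = 0.000212). Each of these genes kept a ratio beyond 4-fold in the fitted change. The calls of ANKRD1, RIMS2, WNT2B, IL11 and LINC01111 held with each of the 11 libraries left out in turn.

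Of the named genes, 7 had no counts in either WM1119 library. PLPPR5, a phospholipid phosphatase-related membrane protein, went from 90 counts over the 3 vehicle libraries to 0 (edgeR adjusted p = 0.00441). Taking 3 counts over the WM1119 group as the floor, it was 14.3-fold lower. Such folds take the vehicle counts as exact, so they are not lower limits. KRT15, a basal epithelial keratin, had 66 counts with vehicle and 0 with WM1119, 10.5-fold lower at this floor (edgeR adjusted p = 0.00255). PALMD, a palmdelphin found at the plasma membrane, likewise had 53 and 0, 8.43-fold lower at this floor (edgeR adjusted p = 0.00276). In the order of the vehicle libraries PLPPR5 read 5.11, 5.56 and 6.69 CPM, KRT15 5.44, 4.07 and 2.84 CPM and PALMD 2.97, 4.07 and 3.24 CPM, so all 3 were seen in each of them. For PEAR1, a receptor with EGF-like repeats, the fold at this floor was 5.73 (edgeR adjusted p = 0.0235). For OLAH, a thioesterase of fatty acid synthesis, it was 5.57 (0.0498), and for WNT6 4.93 (0.0206). The collagenase gene MMP1 also had 0 counts with WM1119. PDGFRB, a growth factor receptor of stromal cells, went from 88 counts to 2, a ratio of 21 between the groups (95% counting interval 5.64 to 176) (edgeR adjusted p = 0.0065). MPZL2, an epithelial adhesion protein, went from 88 counts to 1, a ratio of 42 between the groups (95% counting interval 7.35 to 1680) (edgeR adjusted p = 0.0167). ST6GALNAC3, a sialyltransferase, went from 106 counts to 3, a ratio of 16.9 between the groups (95% counting interval 5.62 to 83.1) (edgeR adjusted p = 0.00839). The calls of KRT15 and PALMD held with each of the 11 libraries left out in turn. Those of PLPPR5, PEAR1, OLAH, WNT6, PDGFRB, MPZL2 and ST6GALNAC3 were lost without R183W WM1119 library 1 or 2 (edgeR adjusted p = 0.058 to 0.271). OLAH, WNT6 and MPZL2 were also lost without R183W vehicle library 1, 2 or 3 (0.052 to 0.0677). OLAH was lost as well without WT WM1119 library 2 or WT vehicle library 1, 2 or 3 (0.0596 to 0.0734).

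**Figure D3:**
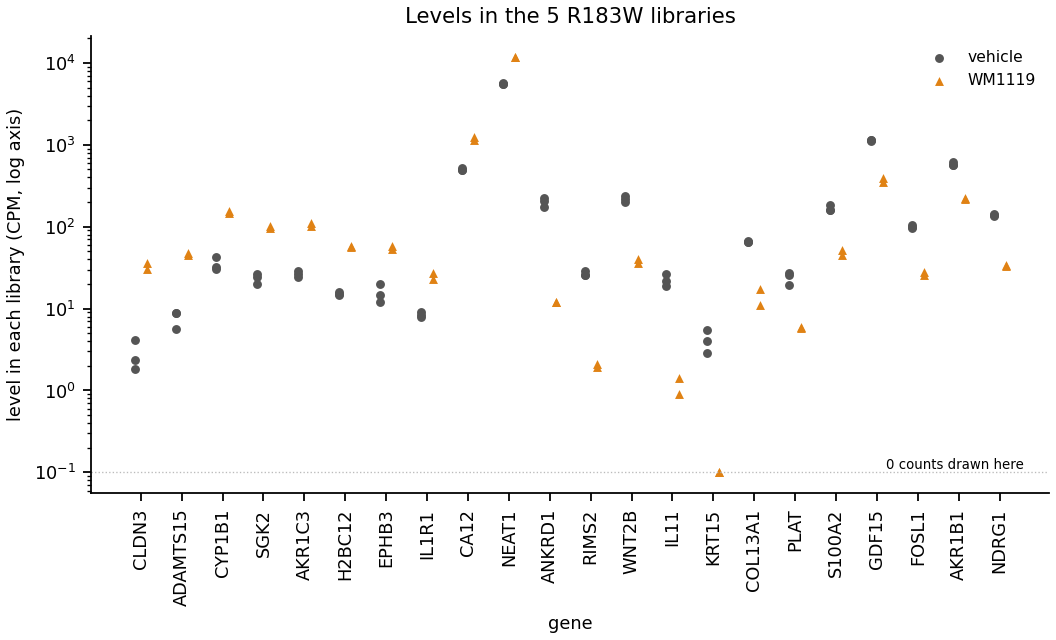
Level of 22 named genes (horizontal axis) in each of the 5 R183W libraries, in CPM on a log axis, with 3 vehicle libraries as grey circles and 2 WM1119 libraries as orange triangles. No gene shown has overlapping groups, and the KRT15 points of the WM1119 libraries, at 0 counts, are drawn on the dotted line.

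The promoters of some members that moved together are shown for the motifs they hold. The windows, from RefSeq on GRCh38.p14, run from 250 bases before to 50 bases after the start of the gene and were read on the gene's strand. ANKRD1 and CCN2 stand for the YAP and TEAD targets with GGAATG, the core bound by TEAD factors, in capitals. OSGIN1 and GCLM stand for the NRF2 targets with TGANNNNGC in capitals. This is a looser pattern than the core of the antioxidant response element, so a match need not hold that core. IL11 and S100A2 stand for lowered secreted and calcium-binding proteins with TGANTCA, the AP-1 site, in capitals. Both strands were searched, so capitals can hold the reverse complement, and TGANNNNGC and TGANTCA can overlap.
ANKRD1, chr10:90921038-90921337, minus strand: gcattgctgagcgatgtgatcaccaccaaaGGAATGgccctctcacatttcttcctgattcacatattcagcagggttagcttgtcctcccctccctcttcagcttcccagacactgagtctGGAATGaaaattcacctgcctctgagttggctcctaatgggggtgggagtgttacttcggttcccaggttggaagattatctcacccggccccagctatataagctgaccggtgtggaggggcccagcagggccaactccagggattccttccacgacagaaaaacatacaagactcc
CCN2, chr6:131951323-131951622, minus strand: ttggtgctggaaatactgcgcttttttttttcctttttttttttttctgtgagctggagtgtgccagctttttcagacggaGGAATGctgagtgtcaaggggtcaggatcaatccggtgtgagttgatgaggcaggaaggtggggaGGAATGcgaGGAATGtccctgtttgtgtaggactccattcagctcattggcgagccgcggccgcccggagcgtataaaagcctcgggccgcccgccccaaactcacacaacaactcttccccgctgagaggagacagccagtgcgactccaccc
OSGIN1, chr16:83952990-83953289, plus strand: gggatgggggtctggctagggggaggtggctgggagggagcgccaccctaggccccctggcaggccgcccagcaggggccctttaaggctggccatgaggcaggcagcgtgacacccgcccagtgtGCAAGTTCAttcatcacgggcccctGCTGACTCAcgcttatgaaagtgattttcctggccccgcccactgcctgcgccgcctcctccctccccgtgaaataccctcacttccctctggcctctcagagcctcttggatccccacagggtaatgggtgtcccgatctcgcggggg
GCLM, chr1:93909381-93909680, minus strand: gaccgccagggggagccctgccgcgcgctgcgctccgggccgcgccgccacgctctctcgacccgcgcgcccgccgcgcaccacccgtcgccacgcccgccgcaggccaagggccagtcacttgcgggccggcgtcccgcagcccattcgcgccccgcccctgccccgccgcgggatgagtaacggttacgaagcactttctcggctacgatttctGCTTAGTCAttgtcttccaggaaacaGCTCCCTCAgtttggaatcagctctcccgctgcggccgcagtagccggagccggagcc
IL11, chr19:55370414-55370713, minus strand: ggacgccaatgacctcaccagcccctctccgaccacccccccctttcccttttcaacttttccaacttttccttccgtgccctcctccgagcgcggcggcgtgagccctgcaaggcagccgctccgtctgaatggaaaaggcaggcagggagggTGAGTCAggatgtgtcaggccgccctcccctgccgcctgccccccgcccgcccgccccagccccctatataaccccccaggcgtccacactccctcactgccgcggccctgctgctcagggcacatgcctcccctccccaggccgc
S100A2, chr1:153565795-153566094, minus strand: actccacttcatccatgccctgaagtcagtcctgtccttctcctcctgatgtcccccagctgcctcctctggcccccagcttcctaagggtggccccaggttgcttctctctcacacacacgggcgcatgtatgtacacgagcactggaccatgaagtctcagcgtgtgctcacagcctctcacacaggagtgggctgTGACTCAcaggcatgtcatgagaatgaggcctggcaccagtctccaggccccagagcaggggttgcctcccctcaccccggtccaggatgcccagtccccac
GGAATG occurred 2 times in the ANKRD1 window and 3 times in the CCN2 window, and 14% of all 35116 windows in the table held it. TGANNNNGC occurred 2 times in each of the OSGIN1 and GCLM windows and in 41.8% of all windows. TGANTCA occurred 1 time in each of the IL11 and S100A2 windows and in 7.71% of all windows. S100A2 has 2 windows in the table, of which the first was read. A match is a description of these letters and not of binding. Windows could be matched by symbol for 202 of the 281 genes called higher and 268 of the 379 called lower, under 80%, so a comparison of motif shares between the sets is void. The 6 genes shown were chosen after their values were seen.

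Called keratin, S100, annexin and actin-binding genes were nearly all lower. Keratins build the intermediate filaments of epithelial cells, and 4 of 15 tested members of the keratin and intermediate filament list fell (26.7%, against 2.71% of all genes), with a median log2 change of -0.83. Beside KRT15, KRT80 fell from 28.5, 16.7 and 20.3 CPM to 6 and 5.44 CPM (log2 change -1.93, SE 0.29, edgeR adjusted p = 0.00194) and KRT222, a keratin-like gene of uncertain filament role, from 15.3, 16.3 and 15.6 CPM to 4.32 and 2.72 CPM (log2 change -2.13, SE 0.33, edgeR adjusted p = 0.00194). KRT86, a hair keratin with near-identical paralogs, fell from 9.73, 4.07 and 8.11 CPM to 1.68 and 1.21 CPM (log2 change -2.31, SE 0.54, edgeR adjusted p = 0.0235). KRT8 and KRT18, the main pair of simple epithelia, read 234 to 236 CPM and 1370 to 1570 CPM with vehicle and 248 to 251 CPM and 1290 to 1300 CPM with WM1119. S100 proteins and annexins bind calcium, and 4 of 19 (21.1%, against 2.71% of all genes) fell. S100A2, an epithelial member, fell from 167 ± 13.3 CPM (SD, n = 3) to 48.4 ± 5 CPM (SD, n = 2; log2 change -1.79, SE 0.14, edgeR adjusted p = 9.97e-06). ANXA3 fell from 7.59, 10.3 and 16 CPM to 1.68 and 1.81 CPM (log2 change -2.67, SE 0.60, edgeR adjusted p = 0.0205). The abundant ANXA1 fell from 253, 316 and 311 CPM to 159 and 179 CPM (log2 change -0.80, SE 0.14, edgeR adjusted p = 0.00566). Of actin-binding proteins, 7 of 78 (8.97%) fell and 1 rose. FHL1, a LIM domain protein of stress fibres, fell from 5.11, 6.85 and 7.5 CPM to 0.48 and 0.604 CPM (log2 change -3.53, SE 0.72, edgeR adjusted p = 0.0117). FLNC, filamin C, fell from 17.3, 11.8 and 9.53 CPM to 4.32 and 3.93 CPM (log2 change -1.64, SE 0.37, edgeR adjusted p = 0.0211). MACF1, which links actin to microtubules and belongs to no described list, fell from 811, 832 and 832 CPM to 440 and 480 CPM (log2 change -0.84, SE 0.14, edgeR adjusted p = 0.00428). Keratins ranged from 2 lower without R183W WM1119 library 2 to 7 without WT WM1119 library 3. S100 proteins and annexins ranged from 1 lower without R183W WM1119 library 1 or 2 to 5 without WT WM1119 library 3. Actin-binding proteins ranged from 0 lower (12 to 13 at an unadjusted p under 0.05) without R183W WM1119 library 1 or 2 to 15 without WT WM1119 library 3. The calls of KRT80 and S100A2 held with each of the 11 libraries left out in turn. Those of KRT222, KRT86, ANXA3, ANXA1, FHL1, FLNC and MACF1 were lost without R183W WM1119 library 1 or 2 (edgeR adjusted p = 0.0531 to 0.225). KRT86, ANXA3 and FLNC were also lost without R183W vehicle library 1, 2 or 3 (0.054 to 0.0841).

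Junction genes moved both ways. Claudins form the strands of tight junctions, and while CLDN3 rose, 4 of 25 (16%, against 2.71% of all genes) genes of the claudin and tight junction list fell. CLDN16, best known from the kidney, fell from 56.8, 46.9 and 41.6 CPM to 13.2 and 9.06 CPM (log2 change -2.10, SE 0.25, edgeR adjusted p = 0.000268). CLDN2, a pore-forming claudin, fell from 400, 284 and 298 CPM to 182 and 181 CPM (log2 change -0.85, SE 0.22, edgeR adjusted p = 0.037). CLDN10, another, fell from 17.2, 20.1 and 21.9 CPM to 9.6 and 6.04 CPM (log2 change -1.31, SE 0.32, edgeR adjusted p = 0.0293). EPCAM, an epithelial adhesion molecule, stood at 37.1, 37.2 and 41 CPM with vehicle and 84.9 and 76.7 CPM with WM1119 (log2 change 1.07, SE 0.16, edgeR adjusted p = 0.00137). The EPCAM values lay about 2-fold apart between the groups with no overlap. Of septin and cilium genes, 3 of 109 rose (2.75%, against 2.01%), led by IFT140, a retrograde intraflagellar transport subunit, which rose from 10.6, 10.3 and 9.94 CPM to 27.4 and 36.8 CPM (log2 change 1.64, SE 0.30, edgeR adjusted p = 0.00642). That share lies near the one of all genes. Claudins and tight junction genes ranged from 1 lower without R183W WM1119 library 1 or 2 to 4, as with all libraries. Septin and cilium genes ranged from 0 higher (5 at an unadjusted p under 0.05) without R183W WM1119 library 2 to 5 without WT WM1119 library 3. The calls of CLDN16 and EPCAM held with each of the 11 libraries left out in turn. Those of CLDN2, CLDN10 and IFT140 were lost without R183W WM1119 library 1 or 2 (edgeR adjusted p = 0.098 to 0.308). CLDN2 and CLDN10 were also lost without R183W vehicle library 1, 2 or 3 (0.0663 to 0.103).

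The extracellular matrix changed in both directions. Laminins and matrix glycoproteins had 7 of 32 (21.9%, against 2.71% of all genes) lower and 3 (9.38%, against 2.01% of all genes) higher. TNC, the tenascin of stressed and embryonic matrix, fell from 57.9, 73 and 86.6 CPM to 25.7 and 19.6 CPM (log2 change -1.67, SE 0.28, edgeR adjusted p = 0.00343). LAMB1, an abundant laminin beta chain, fell from 1160, 1220 and 1210 CPM to 828 and 817 CPM (log2 change -0.54, SE 0.14, edgeR adjusted p = 0.0398). FN1, fibronectin, rose from 61, 73.4 and 69.6 CPM to 151 and 157 CPM (log2 change 1.18, SE 0.20, edgeR adjusted p = 0.00395). Collagens and their modifying enzymes had 4 of 32 (12.5%) lower and 1 higher. COL13A1, a transmembrane collagen, fell from 64.2, 67 and 65.3 CPM to 11 and 17.2 CPM (log2 change -2.22, SE 0.27, edgeR adjusted p = 0.000361), and the crosslinking enzymes LOXL4 from 17, 16.1 and 18.5 CPM to 2.16 and 4.23 CPM (log2 change -2.45, SE 0.37, edgeR adjusted p = 0.00189) and LOX from 6.76, 4.92 and 5.88 CPM to 0 and 1.51 CPM (log2 change -3.04, SE 0.78, edgeR adjusted p = 0.0391). LOX had 0 counts in WM1119 library 1 and 5 in library 2. COL1A1, the main chain of fibrillar collagen, fell from 724, 854 and 927 CPM to 565 and 568 CPM (log2 change -0.56, SE 0.13, edgeR adjusted p = 0.0253). In the list of plasminogen activators and other serine proteases, 4 of 26 (15.4%) fell. PLAT, tissue plasminogen activator, fell from 19.5, 27.2 and 26 CPM to 6 and 5.74 CPM (log2 change -2.03, SE 0.26, edgeR adjusted p = 0.000472). PLAUR, the urokinase receptor, fell from 80.7, 77.5 and 70.2 CPM to 26.6 and 17.8 CPM (log2 change -1.77, SE 0.33, edgeR adjusted p = 0.00773). Laminins and glycoproteins ranged from 0 lower (7 at an unadjusted p under 0.05) without R183W WM1119 library 2 to 7, as with all libraries, and from 0 higher (5 at an unadjusted p under 0.05) without R183W WM1119 library 2 to 6 without WT WM1119 library 3. Collagens ranged from 1 lower without R183W WM1119 library 1 to 7 without WT WM1119 library 1 or 3. Serine proteases ranged from 1 lower without R183W WM1119 library 1 or 2 to 4, as with all libraries. The calls of COL13A1 and PLAT held with each of the 11 libraries left out in turn. Those of TNC, LAMB1, FN1, LOXL4, LOX, COL1A1 and PLAUR were lost without R183W WM1119 library 1 or 2 (edgeR adjusted p = 0.0522 to 0.29). LAMB1, LOX and COL1A1 were also lost without R183W vehicle library 1, 2 or 3 (0.0655 to 0.131). LAMB1 and LOX were lost as well without WT WM1119 library 2 or WT vehicle library 2 or 3 (0.0506 to 0.0678).

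Among secreted signals and their receptors, calls went both ways. Of TGF-beta and BMP family genes, 4 of 49 (8.16%, against 2.71% of all genes) fell and 2 (4.08%, against 2.01% of all genes) rose. GDF15, a stress-induced ligand, fell from 1140, 1110 and 1150 CPM to 353 and 399 CPM (log2 change -1.59, SE 0.12, edgeR adjusted p = 7.63e-06). The activin subunits INHBE and INHBB fell from 55.8, 40.4 and 52.3 CPM to 18 and 12.1 CPM (log2 change -1.71, SE 0.23, edgeR adjusted p = 0.000845) and from 13.7, 20.3 and 17.2 CPM to 3.12 and 4.83 CPM (log2 change -2.11, SE 0.39, edgeR adjusted p = 0.00689). GDF1, which shares a transcript with the ceramide synthase CERS1 and is therefore uncertain, rose from 9.9, 5.14 and 9.53 CPM to 30.2 and 30.5 CPM (log2 change 1.88, SE 0.41, edgeR adjusted p = 0.0183). Among interleukins and receptors 4 of 34 (11.8%) fell and 4 (11.8%) rose. IL20RB, a receptor chain for interleukin 20 family cytokines, fell from 35, 27.8 and 29.8 CPM to 6.72 and 5.74 CPM (log2 change -2.30, SE 0.30, edgeR adjusted p = 0.000505). IL1R1, the signalling receptor for interleukin 1, rose from 9.07, 7.92 and 8.31 CPM to 22.8 and 27.2 CPM (log2 change 1.56, SE 0.20, edgeR adjusted p = 0.000498). Outside that list, MIF, a cytokine-like tautomerase, rose from 344, 214 and 264 CPM to 714 and 693 CPM (log2 change 1.36, SE 0.21, edgeR adjusted p = 0.00212). AREG, a ligand of the EGF receptor and also outside it, fell from 7.59, 9.42 and 9.94 CPM to 0.24 and 1.51 CPM (log2 change -3.42, SE 0.55, edgeR adjusted p = 0.00283). Of growth factors, 3 of 26 (11.5%) fell, among them FGF18, with 57 counts in the vehicle and 3 in the WM1119 libraries, a ratio of 9.07 between the groups (95% counting interval 2.95 to 45.3) (edgeR adjusted p = 0.0156). ADM, adrenomedullin, a vasodilator peptide, fell from 35.8, 24.6 and 36.5 CPM to 4.8 and 6.04 CPM (log2 change -2.58, SE 0.42, edgeR adjusted p = 0.00304). TGF-beta family genes ranged from 2 lower without R183W WM1119 library 1 or 2 to 6 without WT WM1119 library 3, and from 0 higher (5 at an unadjusted p under 0.05) without R183W WM1119 library 1 to 5 without WT WM1119 library 3. Interleukins and receptors ranged from 2 lower without library 1 or 2 of R183W WM1119, or library 1, 2 or 3 of R183W vehicle to 5 without WT WM1119 library 1 or 3, and from 1 higher without library 1 or 2 of R183W WM1119, or library 2 or 3 of R183W vehicle to 4, as with all libraries. Growth factors ranged from 0 lower (5 at an unadjusted p under 0.05) without library 1 or 2 of R183W WM1119, or library 3 of R183W vehicle to 4 without WT WM1119 library 3. The calls of GDF15, INHBE, IL20RB, IL1R1 and MIF held with each of the 11 libraries left out in turn. Those of INHBB, GDF1, AREG, FGF18 and ADM were lost without R183W WM1119 library 1 or 2 (edgeR adjusted p = 0.0593 to 0.169). GDF1 and FGF18 were also lost without R183W vehicle library 2 or 3 (0.0504 to 0.0853).

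Receptors and guidance cues had calls in both directions. Of receptor tyrosine kinases, 3 of 32 (9.38%, against 2.71% of all genes) fell, AXL, FGFR1 and PDGFRB, and 1 (3.12%, against 2.01% of all genes) rose, EPHB3. AXL, the receptor for GAS6, fell from 380, 289 and 305 CPM to 113 and 125 CPM (log2 change -1.45, SE 0.20, edgeR adjusted p = 0.00086). FGFR1 fell from 193, 182 and 215 CPM to 104 and 128 CPM (log2 change -0.76, SE 0.20, edgeR adjusted p = 0.0464). EPHB3, a receptor for ephrin B ligands, rose from 20.1, 12.2 and 14.8 CPM to 57.6 and 52.9 CPM (log2 change 1.80, SE 0.28, edgeR adjusted p = 0.00235). Of ephrins, semaphorins and related guidance genes 3 of 41 (7.32%) fell and 1 (2.44%) rose, the latter share near that of all genes. NRP2, a semaphorin and VEGF coreceptor, fell from 15.5, 14.6 and 18.2 CPM to 2.4 and 3.62 CPM (log2 change -2.43, SE 0.42, edgeR adjusted p = 0.00441). ROBO2, a Slit receptor, rose from 5.44, 8.35 and 8.11 CPM to 18 and 25.1 CPM (log2 change 1.56, SE 0.35, edgeR adjusted p = 0.0195). WNT ligands, inhibitors and receptors had 3 of 22 (13.6%) lower and 3 (13.6%) higher. Beside WNT2B and WNT6, TCF7, a transcription factor of the WNT pathway, fell from 30.2, 22.3 and 23.1 CPM to 6.72 and 9.36 CPM (log2 change -1.66, SE 0.35, edgeR adjusted p = 0.0154). Its relative TCF7L1 rose from 19.6, 18.6 and 21.7 CPM to 34.8 and 47.1 CPM (log2 change 1.03, SE 0.26, edgeR adjusted p = 0.0352). Of Notch pathway genes 3 of 23 (13%) rose. LFNG, a glycosyltransferase that modifies Notch, rose from 30, 27.6 and 24.9 CPM to 53 and 56.5 CPM (log2 change 0.99, SE 0.21, edgeR adjusted p = 0.0154). The ligand JAG1 rose from 39.9, 43 and 42.4 CPM to 69.8 and 63.1 CPM (log2 change 0.67, SE 0.15, edgeR adjusted p = 0.0215). The groups did not overlap in any of these genes. Phospholipase and prostanoid enzymes had 3 of 32 (9.38%) lower, among them PTGS1, a cyclooxygenase, which fell from 6.43, 4.07 and 6.49 CPM to 1.92 and 1.51 CPM (log2 change -1.70, SE 0.44, edgeR adjusted p = 0.0386). Receptor tyrosine kinases ranged from 1 lower without R183W WM1119 library 1 or 2 to 4 without WT WM1119 library 3. Guidance genes ranged from 1 lower without library 1 or 2 of R183W WM1119, or library 1, 2 or 3 of R183W vehicle to 10 without WT WM1119 library 3. WNT genes ranged from 1 lower without R183W WM1119 library 1 or 2 to 5 without WT WM1119 library 3, and from 0 higher (3 at an unadjusted p under 0.05) without R183W WM1119 library 1 to 3, as with all libraries. Phospholipase and prostanoid enzymes ranged from 0 lower (4 to 5 at an unadjusted p under 0.05) without R183W WM1119 library 1 or 2 to 3, as with all libraries. Notch genes ranged from 0 higher (5 to 7 at an unadjusted p under 0.05) without library 1 or 2 of R183W WM1119, or library 2 or 3 of R183W vehicle to 4 without WT WM1119 library 1 or 3. The calls of AXL and EPHB3 held with each of the 11 libraries left out in turn. Those of FGFR1, NRP2, ROBO2, TCF7, TCF7L1, LFNG, JAG1 and PTGS1 were lost without R183W WM1119 library 1 or 2 (edgeR adjusted p = 0.0763 to 0.346). FGFR1, ROBO2, TCF7L1, LFNG, JAG1 and PTGS1 were also lost without R183W vehicle library 1, 2 or 3 (0.055 to 0.159). FGFR1 and PTGS1 were lost as well without WT vehicle library 2 or 3 (0.0542 to 0.0586).

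Called redox and iron genes were mostly higher. NRF2 is the transcription factor that drives antioxidant enzymes, and 10 of 28 of its targets rose (35.7%, against 2.01% of all genes), with a median log2 change of 0.67. AKR1C3, an aldo-keto reductase that reduces steroids and prostaglandins, rose from 26.7, 24.4 and 28.6 CPM to 112 and 101 CPM (log2 change 2.00, SE 0.15, edgeR adjusted p = 7.63e-06). OSGIN1 rose from 10.9, 5.35 and 5.68 CPM to 16.1 and 24.8 CPM (log2 change 1.46, SE 0.37, edgeR adjusted p = 0.035), NQO1, a quinone reductase, from 103, 114 and 124 CPM to 247 and 214 CPM (log2 change 1.02, SE 0.18, edgeR adjusted p = 0.00428). GCLM, the modifier subunit of glutathione synthesis, rose from 54.1, 56.7 and 54.3 CPM to 96.7 and 115 CPM (log2 change 0.94, SE 0.20, edgeR adjusted p = 0.0161). The ferritin chains FTL and FTH1 store iron. FTL rose from 922, 826 and 880 CPM to 2050 and 2090 CPM (log2 change 1.24, SE 0.12, edgeR adjusted p = 3.28e-05) and FTH1 from 2930, 2920 and 2830 CPM to 5110 and 4700 CPM (log2 change 0.76, SE 0.14, edgeR adjusted p = 0.00763). ACO1, which binds iron-responsive elements when iron is short, rose from 13.2, 13.9 and 11.8 CPM to 27.1 and 24.8 CPM (log2 change 1.00, SE 0.24, edgeR adjusted p = 0.0285). GPX4, which clears lipid peroxides, rose from 202, 133 and 156 CPM to 340 and 452 CPM (log2 change 1.27, SE 0.33, edgeR adjusted p = 0.0495). The direction was not uniform among reductases: AKR1B1, aldose reductase, fell from 568, 573 and 609 CPM to 220 and 225 CPM (log2 change -1.39, SE 0.13, edgeR adjusted p = 3.28e-05), so that 2 aldo-keto reductases moved in opposite directions. Of glutathione, thioredoxin and peroxidase genes 5 of 58 (8.62%, against 2.01% of all genes) rose and GLRX2, a mitochondrial glutaredoxin, fell from 94, 81.8 and 87.6 CPM to 53.3 and 42.6 CPM (log2 change -0.87, SE 0.17, edgeR adjusted p = 0.00987). Close paralogs of AKR1C3 and pseudogenes of the ferritins make their read assignment uncertain. NRF2 targets ranged from 2 higher without R183W WM1119 library 1 to 13 without WT WM1119 library 3. Iron, heme and copper genes ranged from 1 higher without R183W WM1119 library 1 or 2 to 8 without WT WM1119 library 3. Glutathione and related genes ranged from 0 higher (7 to 8 at an unadjusted p under 0.05) without library 1 or 2 of R183W WM1119, or library 2 or 3 of R183W vehicle to 6 without WT WM1119 library 3. Aldo-keto reductases and short-chain dehydrogenases ranged from 1 higher without R183W WM1119 library 1 to 5 without WT WM1119 library 3, and from 1 lower without library 1 or 2 of R183W WM1119, or library 2 or 3 of R183W vehicle to 3 without WT WM1119 library 3. The calls of AKR1C3, FTL and AKR1B1 held with each of the 11 libraries left out in turn. Those of OSGIN1, NQO1, GCLM, FTH1, ACO1, GPX4 and GLRX2 were lost without R183W WM1119 library 1 or 2 (edgeR adjusted p = 0.0522 to 0.348). OSGIN1, GCLM, ACO1 and GPX4 were also lost without R183W vehicle library 1, 2 or 3 (0.0543 to 0.165). OSGIN1 and GPX4 were lost as well without WT WM1119 library 1, 2 or 3 or WT vehicle library 2 (0.0528 to 0.0941).

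Lipid genes were called upward more often than downward. Of cholesterol synthesis and uptake genes, 4 of 32 rose (12.5%). INSIG1, which holds back the sterol-sensing machinery, rose from 70.3, 68.1 and 64.1 CPM to 151 and 150 CPM (log2 change 1.16, SE 0.16, edgeR adjusted p = 0.000947). HMGCS1, the synthase before the rate-limiting step, rose from 24.3, 26.8 and 23.9 CPM to 60.7 and 50.1 CPM (log2 change 1.15, SE 0.22, edgeR adjusted p = 0.0088). Of triglyceride, lipid droplet and phospholipid genes 5 of 53 (9.43%, against 2.01% of all genes) rose and 2 fell. APOE, a lipid carrier, rose from 22.9, 15.4 and 15.2 CPM to 55.4 and 59.5 CPM (log2 change 1.68, SE 0.32, edgeR adjusted p = 0.00773). HILPDA, a hypoxia-induced droplet protein, fell from 121, 122 and 112 CPM to 68.4 and 64 CPM (log2 change -0.84, SE 0.15, edgeR adjusted p = 0.00621). Of fatty acid oxidation genes 3 of 30 (10%) rose and 1 fell. CPT1A, the gate of mitochondrial fatty acid import, rose from 210, 186 and 174 CPM to 276 and 293 CPM (log2 change 0.58, SE 0.13, edgeR adjusted p = 0.021). ACOX3 rose from 17.5, 13.9 and 12.6 CPM to 26.2 and 26 CPM (log2 change 0.82, SE 0.22, edgeR adjusted p = 0.0473) and ACOX2, both peroxisomal acyl-CoA oxidases, fell from 4.29, 5.35 and 6.08 CPM to 0.72 and 0.906 CPM (log2 change -2.66, SE 0.57, edgeR adjusted p = 0.016). PPARA, the nuclear receptor that drives such genes, rose from 22.6, 26.8 and 28.4 CPM to 50.6 and 64.6 CPM (log2 change 1.15, SE 0.20, edgeR adjusted p = 0.00416). Of ABC transporters 3 of 28 (10.7%) rose, and ABCC3, an exporter of conjugates, did so from 73.8, 71.5 and 68.5 CPM to 123 and 134 CPM (log2 change 0.85, SE 0.18, edgeR adjusted p = 0.016). Cholesterol genes ranged from 1 higher without R183W WM1119 library 1 or 2 to 7 without WT WM1119 library 3. Lipid droplet and phospholipid genes ranged from 0 higher (6 to 8 at an unadjusted p under 0.05) without library 1 or 2 of R183W WM1119, or library 3 of R183W vehicle to 7 without WT WM1119 library 3, and from 0 lower (2 to 3 at an unadjusted p under 0.05) without R183W WM1119 library 1 or 2 to 4 without WT WM1119 library 3. Fatty acid oxidation genes ranged from 0 higher (4 to 6 at an unadjusted p under 0.05) without library 1 or 2 of R183W WM1119, or library 2 or 3 of R183W vehicle to 5 without WT WM1119 library 3. ABC transporters ranged from 0 higher (6 at an unadjusted p under 0.05) without R183W WM1119 library 1 or 2 to 6 without WT WM1119 library 3. The call of INSIG1 held with each of the 11 libraries left out in turn. Those of HMGCS1, APOE, HILPDA, CPT1A, ACOX3, ACOX2, PPARA and ABCC3 were lost without R183W WM1119 library 1 or 2 (edgeR adjusted p = 0.0612 to 0.256). APOE, CPT1A, ACOX3, ACOX2 and ABCC3 were also lost without R183W vehicle library 1, 2 or 3 (0.0501 to 0.176). ACOX3 was lost as well without WT WM1119 library 2 or WT vehicle library 1, 2 or 3 (0.0596 to 0.0787).

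Calls among amino acid enzymes went both ways, while those among nucleotide enzymes and hypoxia genes were nearly all lower. ASNS, asparagine synthetase, fell from 945, 934 and 935 CPM to 435 and 451 CPM (log2 change -1.08, SE 0.13, edgeR adjusted p = 0.000279). BCAT1, the cytosolic aminotransferase of branched-chain amino acids, fell from 205, 252 and 258 CPM to 89.5 and 85.8 CPM (log2 change -1.44, SE 0.23, edgeR adjusted p = 0.00248). The urea cycle enzymes ASL and ASS1, which make arginine, rose from 8.41, 4.92 and 6.89 CPM to 13.9 and 15.7 CPM (log2 change 1.12, SE 0.28, edgeR adjusted p = 0.0337) and from 29.5, 29.1 and 33.7 CPM to 43.4 and 52.6 CPM (log2 change 0.64, SE 0.15, edgeR adjusted p = 0.0256). Of purine and pyrimidine enzymes 3 of 39 (7.69%, against 2.71% of all genes) fell. CTPS1, CTP synthase, fell from 119, 116 and 113 CPM to 48.7 and 40.8 CPM (log2 change -1.37, SE 0.16, edgeR adjusted p = 0.000279). GART, of purine synthesis, fell from 105, 118 and 113 CPM to 58.1 and 66.4 CPM (log2 change -0.85, SE 0.15, edgeR adjusted p = 0.00561). Of hypoxia-responsive genes 6 of 28 (21.4%) fell and 1 rose. NDRG1, a stress-induced gene, fell from 134, 140 and 145 CPM to 33.4 and 33.8 CPM (log2 change -2.06, SE 0.28, edgeR adjusted p = 0.000965). The member that rose was CA12, a carbonic anhydrase of the cell surface, which rose from 521, 490 and 498 CPM to 1260 and 1130 CPM (log2 change 1.25, SE 0.12, edgeR adjusted p = 3.58e-05). Of 81 nuclear-encoded respiratory chain subunits, 3 rose (3.7%, against 2.01% of all genes): NDUFS7, NDUFV1 and NDUFA13. These are subunits of complex I, and how many of the 81 belong to that complex was not counted. NDUFV1 rose from 104, 66.8 and 70 CPM to 185 and 167 CPM (log2 change 1.13, SE 0.22, edgeR adjusted p = 0.0088). Purine and pyrimidine enzymes ranged from 1 lower without R183W WM1119 library 1 or 2 to 10 without WT WM1119 library 3. Hypoxia genes ranged from 1 lower without R183W WM1119 library 1 to 11 without WT WM1119 library 3. Amino acid enzymes ranged from 0 higher (3 to 4 at an unadjusted p under 0.05) without library 1 or 2 of R183W WM1119, or library 2 or 3 of R183W vehicle to 4 without WT WM1119 library 3, and from 1 lower without R183W WM1119 library 1 or 2 to 6 without WT WM1119 library 3. Respiratory chain subunits ranged from 0 higher (4 to 7 at an unadjusted p under 0.05) without library 1 or 2 of R183W WM1119, or library 2 or 3 of R183W vehicle to 7 without WT WM1119 library 3. The calls of ASNS, CTPS1, NDRG1 and CA12 held with each of the 11 libraries left out in turn. Those of BCAT1, ASL, ASS1, GART and NDUFV1 were lost without R183W WM1119 library 1 or 2 (edgeR adjusted p = 0.0503 to 0.32). ASL, ASS1 and NDUFV1 were also lost without R183W vehicle library 1, 2 or 3 (0.0525 to 0.133). ASL was lost as well without WT WM1119 library 2 or WT vehicle library 2 (0.0522 to 0.0549).

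Leucine zipper factors had calls in both directions. Of the tested genes, 5 of 42 (11.9%, against 2.71% of all genes) fell and 4 (9.52%, against 2.01% of all genes) rose. With GC correction 5 fell and 2 rose. The AP-1 subunit FOSL1 fell from 99, 104 and 95.5 CPM to 25.7 and 27.8 CPM (log2 change -1.90, SE 0.18, edgeR adjusted p = 3.28e-05), CREB5 from 72.3, 62.7 and 76.6 CPM to 31.4 and 24.5 CPM (log2 change -1.33, SE 0.23, edgeR adjusted p = 0.00464) and BACH2, a repressor of the same family, from 13, 10.9 and 12.6 CPM to 3.84 and 3.32 CPM (log2 change -1.75, SE 0.36, edgeR adjusted p = 0.013). The 2 clock output factors TEF and DBP rose from 14.8, 12 and 13.4 CPM to 28.3 and 31.1 CPM (log2 change 1.14, SE 0.27, edgeR adjusted p = 0.0276) and from 11.5, 15.8 and 10.7 CPM to 27.1 and 26.6 CPM (log2 change 1.08, SE 0.26, edgeR adjusted p = 0.0297). PER3, a period gene of the circadian clock, rose from 10.1, 11.1 and 8.72 CPM to 27.6 and 20.8 CPM (log2 change 1.28, SE 0.29, edgeR adjusted p = 0.0215), and with TEF and DBP it made up the 3 of 19 (15.8%) clock genes that rose. Of nuclear receptors, 3 of 27 (11.1%) rose: PPARA, given above, THRA, a thyroid hormone receptor, from 26.1, 23.1 and 21.1 CPM to 48 and 39.3 CPM (log2 change 0.90, SE 0.19, edgeR adjusted p = 0.0162). NR2F2, an orphan receptor also called COUP-TFII, rose from 284, 296 and 313 CPM to 401 and 403 CPM (log2 change 0.43, SE 0.12, edgeR adjusted p = 0.0476). NR2F2 had the smallest change of the 207 called genes named by the rule. Of 380 numbered zinc finger genes 7 rose (1.84%, against 2.01% of all genes), with a list median of 0.16. None was called lower by edgeR, where 7 were lower at an unadjusted p under 0.05, and DESeq2 called 1 and limma-voom 0 lower. ZNF91, a repressor of retroelements, rose from 13.5, 12 and 10.7 CPM to 28.8 and 40.2 CPM (log2 change 1.50, SE 0.30, edgeR adjusted p = 0.01). Zinc finger genes have many close paralogs, so single members are uncertain. Clock genes ranged from 0 higher (3 to 5 at an unadjusted p under 0.05) without library 1 or 2 of R183W WM1119, or library 1 or 3 of R183W vehicle to 4 without WT WM1119 library 3. Nuclear receptors ranged from 0 higher (4 at an unadjusted p under 0.05) without R183W WM1119 library 2 to 4 without WT WM1119 library 3. Zinc finger genes ranged from 0 higher (24 at an unadjusted p under 0.05) without R183W WM1119 library 2 to 19 without WT WM1119 library 3. Leucine zipper factors ranged from 2 lower without R183W WM1119 library 2 to 8 without WT WM1119 library 3, and from 0 higher (5 to 6 at an unadjusted p under 0.05) without R183W WM1119 library 1 or 2 to 5 without WT WM1119 library 3. The call of FOSL1 held with each of the 11 libraries left out in turn. Those of CREB5, BACH2, TEF, DBP, PER3, THRA, NR2F2 and ZNF91 were lost without R183W WM1119 library 1 or 2 (edgeR adjusted p = 0.0717 to 0.3). TEF, DBP, PER3, THRA, NR2F2 and ZNF91 were also lost without R183W vehicle library 1, 2 or 3 (0.0504 to 0.154). NR2F2 was lost as well without WT WM1119 library 2 or WT vehicle library 1, 2 or 3 (0.0654 to 0.103).

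Chromatin remodelers and cell cycle genes that passed were mainly lower. DPF3, a SWI/SNF subunit that reads acetylated histones, fell from 6.43, 5.56 and 5.68 CPM to 0.96 and 0 CPM (log2 change -3.42, SE 0.67, edgeR adjusted p = 0.00973), with 0 counts in WM1119 library 2. HMGA1, an architectural chromatin protein with pseudogenes, fell from 669, 650 and 615 CPM to 290 and 287 CPM (log2 change -1.16, SE 0.24, edgeR adjusted p = 0.0143). HMGN5, a nucleosome-binding protein, rose from 75.1, 87.1 and 107 CPM to 169 and 135 CPM (log2 change 0.76, SE 0.17, edgeR adjusted p = 0.0181). Of polycomb, SWI/SNF and related genes 4 of 72 (5.56%, against 2.71% of all genes) fell and 1 rose. Replication genes had 11 of 58 lower (19%, against 2.71%). In R183W cells the log2 changes of CDC6, MCM3, MCM7 and MCM10 were -0.96, -0.83, -0.78 and -0.85. In WT cells they were 0.84, 0.76, 0.88 and 0.51. The difference between the genotypes was called for each (edgeR adjusted p = 0.0136 to 0.0284), but not without R183W vehicle library 2 or 3. None of these differences was called in a fit with a block for replicate number. Without R183W WM1119 library 1, and likewise without library 2, most of them were lost too. These genes were chosen after their values were seen. POLA2, the B subunit of DNA polymerase alpha, fell from 47.5, 47.5 and 48.9 CPM to 20.9 and 18.4 CPM (log2 change -1.28, SE 0.19, edgeR adjusted p = 0.00174). RPA3, which coats single-stranded DNA, fell from 51.8, 56.5 and 62.3 CPM to 23 and 27.8 CPM (log2 change -1.16, SE 0.22, edgeR adjusted p = 0.00684). Kinetochore, spindle and cohesin genes had 6 of 74 (8.11%) lower, led by PLK2, a polo-like kinase that p53 induces, which fell from 54.8, 64.4 and 70.8 CPM to 13.7 and 15.7 CPM (log2 change -2.11, SE 0.25, edgeR adjusted p = 0.000279). SMC1B, the meiotic cohesin subunit, fell from 162 ± 25.3 CPM (SD, n = 3) to 78.4 ± 4.9 CPM (SD, n = 2; log2 change -1.05, SE 0.20, edgeR adjusted p = 0.00783). Of p53 targets 4 of 27 (14.8%) fell, GADD45A among them from 89.4, 114 and 126 CPM to 36 and 36.2 CPM (log2 change -1.60, SE 0.20, edgeR adjusted p = 0.000472). Of BCL2 family genes and caspases 3 of 38 (7.89%) fell, among them BCL2L1, which encodes the survival protein BCL-XL, from 38.6, 36.4 and 40.1 CPM to 13.9 and 9.36 CPM (log2 change -1.71, SE 0.28, edgeR adjusted p = 0.00343). PMAIP1, the pro-death protein NOXA, fell from 42.7, 53.5 and 64.3 CPM to 27.8 and 27.5 CPM (log2 change -0.95, SE 0.23, edgeR adjusted p = 0.0278). Chromatin remodelers ranged from 0 lower (8 at an unadjusted p under 0.05) without R183W WM1119 library 2 to 6 without WT WM1119 library 3. Replication genes ranged from 0 lower (17 at an unadjusted p under 0.05) without R183W WM1119 library 2 to 19 without WT WM1119 library 3. Kinetochore and spindle genes ranged from 1 lower without R183W WM1119 library 1 or 2 to 18 without WT WM1119 library 3. The p53 targets ranged from 2 lower without R183W WM1119 library 1 to 6 without WT WM1119 library 3. BCL2 family genes ranged from 0 lower (5 at an unadjusted p under 0.05) without R183W WM1119 library 2 to 6 without WT WM1119 library 3. The calls of PLK2 and GADD45A held with each of the 11 libraries left out in turn. Those of DPF3, HMGA1, HMGN5, POLA2, RPA3, SMC1B, BCL2L1 and PMAIP1 were lost without R183W WM1119 library 1 or 2 (edgeR adjusted p = 0.0529 to 0.249). HMGN5 and PMAIP1 were also lost without R183W vehicle library 1, 2 or 3 (0.0769 to 0.118).

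YAP and TEAD targets, the genes switched on by cell tension through the Hippo pathway, had 6 of 23 (26.1%, against 2.71% of all genes) lower with a list median of -0.59. Beside ANKRD1 and AXL, CCN2, a matricellular factor, fell from 7.26, 7.92 and 9.12 CPM to 2.16 and 0.302 CPM (log2 change -2.60, SE 0.68, edgeR adjusted p = 0.0421). NUAK2, a kinase related to AMPK, fell from 57.3, 49.4 and 53.1 CPM to 28.8 and 23.9 CPM (log2 change -1.01, SE 0.21, edgeR adjusted p = 0.0137). CCN2 had 1 count in WM1119 library 2. These targets ranged from 2 lower without R183W WM1119 library 2 to 11 without WT WM1119 library 3. Both calls were lost without R183W WM1119 library 1 or 2 (edgeR adjusted p = 0.08 to 0.332). CCN2 was also lost without R183W vehicle library 1, 2 or 3, WT WM1119 library 2 or WT vehicle library 2 (0.0583 to 0.115).

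RNA-binding and ubiquitin ligase families stayed close to the background. Of hnRNP, SR and DEAD-box proteins and related splicing factors 5 of 138 fell (3.62%, against 2.71%). SRSF3, a splicing factor, fell from 278, 293 and 298 CPM to 166 and 174 CPM (log2 change -0.77, SE 0.13, edgeR adjusted p = 0.00465). MBNL3, an antagonist of muscle differentiation, fell from 28, 26.8 and 33.1 CPM to 9.12 and 10.6 CPM (log2 change -1.57, SE 0.29, edgeR adjusted p = 0.00579). Of 128 RING ligases 3 rose and 2 fell, and of 126 F-box, BTB and SOCS-box subunits 3 rose and 1 fell. Over all genes 2.01% rose and 2.71% fell. TRIM24, a bromodomain ligase, rose from 69.3, 66.1 and 68.7 CPM to 105 and 102 CPM (log2 change 0.61, SE 0.14, edgeR adjusted p = 0.0218). KLHDC2, which recognises C-terminal degrons, rose from 39.1, 35.7 and 38.1 CPM to 55.2 and 68.9 CPM (log2 change 0.72, SE 0.17, edgeR adjusted p = 0.0239). The hnRNP, SR and related proteins ranged from 0 lower (9 to 11 at an unadjusted p under 0.05) without R183W WM1119 library 1 or 2 to 15 without WT WM1119 library 3. RING ligases ranged from 0 higher (6 to 9 at an unadjusted p under 0.05) without library 1 or 2 of R183W WM1119, or library 1, 2 or 3 of R183W vehicle to 4 without WT WM1119 library 3, and from 0 lower (8 to 13 at an unadjusted p under 0.05) without library 1 or 2 of R183W WM1119, library 2 or 3 of R183W vehicle or library 2 or 3 of WT vehicle to 6 without WT WM1119 library 3. F-box and BTB subunits ranged from 0 higher (6 to 14 at an unadjusted p under 0.05) without library 2 of R183W WM1119, or library 1, 2 or 3 of R183W vehicle to 8 without WT WM1119 library 3. All 4 calls were lost without R183W WM1119 library 1 or 2 (edgeR adjusted p = 0.0717 to 0.315). TRIM24 and KLHDC2 were also lost without R183W vehicle library 1, 2 or 3 (0.0623 to 0.102).

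Noncoding RNA took a larger share of the counts with WM1119. Long noncoding genes held 3.66% to 4.3% of counts in the vehicle libraries and 6.01% and 5.96% in the WM1119 libraries, for the most part through MALAT1 and NEAT1. NEAT1, the scaffold of nuclear paraspeckles, rose from 5530, 5610 and 5630 CPM to 11800 and 11900 CPM (log2 change 1.09, SE 0.15, edgeR adjusted p = 0.00113). Its neighbour MALAT1, an RNA of nuclear speckles, rose from 13400, 18600 and 19700 CPM to 30300 and 29700 CPM (log2 change 0.80, SE 0.15, edgeR adjusted p = 0.00839). MALAT1 was lowest in vehicle library 1, and both WM1119 libraries lay above the vehicle libraries. KCNQ1OT1, which silences an imprinted domain in cis, rose from 310, 337 and 360 CPM to 563 and 585 CPM (log2 change 0.77, SE 0.13, edgeR adjusted p = 0.00432). Of 12 nuclear-retained noncoding RNAs 4 rose and 1 fell, against 2.01% and 2.71% of all genes. By contrast, long intergenic noncoding genes fell more often than they rose, with 9 of 156 lower (5.77%, against 2.71%) and 2 higher. LINC02582 fell from 32.5, 41.9 and 42.6 CPM to 9.6 and 5.74 CPM (log2 change -2.32, SE 0.28, edgeR adjusted p = 0.000336). LINC00513 fell from 8.74, 7.49 and 7.71 CPM to 0.96 and 0.604 CPM (log2 change -3.28, SE 0.60, edgeR adjusted p = 0.00579). MIR503HG, a miRNA host gene, rose from 73.9, 62.3 and 63.9 CPM to 130 and 140 CPM (log2 change 1.01, SE 0.14, edgeR adjusted p = 0.000714). Of antisense transcripts 4 of 287 rose (1.39%, against 2.01% of all genes) and 1 fell (0.348%, against 2.71%). In other fits the share that rose also lay near that of all genes, somewhat above it in some and below it in others. It was 2.79% against 2.15% with GC correction (8 genes) and 3.48% against 3.11% by DESeq2 (10 genes). By limma-voom it was 2.44% against 2.47%. In the R183W libraries alone 22 of 251 rose (8.76%, against 9.16%). PKD1L1-AS1 fell from 22.4, 18 and 19.7 CPM to 3.84 and 5.44 CPM (log2 change -2.12, SE 0.28, edgeR adjusted p = 0.000714). The sources used here do not give how counting treated strand, so reads of antisense and overlapping genes, KCNQ1OT1 included, cannot be assigned with certainty. Nuclear-retained RNAs ranged from 1 higher without R183W WM1119 library 1 or 2 to 5 without WT WM1119 library 3. Antisense transcripts ranged from 0 higher (17 to 24 at an unadjusted p under 0.05) without library 1 or 2 of R183W WM1119, or library 2 of R183W vehicle to 11 without WT WM1119 library 3. Long intergenic genes ranged from 3 lower without R183W WM1119 library 1 to 18 without WT WM1119 library 3, and from 0 higher (7 at an unadjusted p under 0.05) without R183W WM1119 library 2 to 6 without WT WM1119 library 3. The calls of NEAT1, LINC02582, MIR503HG and PKD1L1-AS1 held with each of the 11 libraries left out in turn. Those of MALAT1, KCNQ1OT1 and LINC00513 were lost without R183W WM1119 library 1 or 2 (edgeR adjusted p = 0.0579 to 0.109).

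Called interferon-stimulated and complement genes were nearly all higher. Of 36 interferon-stimulated genes tested, 7 rose (19.4%) and 1 fell, with a list median of 0.44. IFITM3, which blocks viral entry and has near-identical paralogs, rose from 475, 328 and 340 CPM to 914 and 956 CPM (log2 change 1.30, SE 0.24, edgeR adjusted p = 0.00825). OAS1, an antiviral synthetase, rose from 1.48, 4.49 and 1.22 CPM to 8.16 and 9.66 CPM (log2 change 1.91, SE 0.50, edgeR adjusted p = 0.0441). OASL had 0 counts in the vehicle libraries and 7 in the WM1119 libraries (edgeR adjusted p = 0.0234). With 3 counts as the vehicle floor it was 4.89-fold higher. This fold takes the 7 counts as exact, so it is no lower limit. Of complement and related genes 3 of 17 (17.6%, against 2.01% of all genes) rose. CLU, clusterin, an extracellular chaperone, rose from 2230, 1910 and 1980 CPM to 4210 and 4570 CPM (log2 change 1.11, SE 0.18, edgeR adjusted p = 0.00267). The complement regulator CFI rose from 8.91, 9.63 and 12.8 CPM to 27.4 and 19.9 CPM (log2 change 1.19, SE 0.24, edgeR adjusted p = 0.01). Interferon-stimulated genes ranged from 1 higher without R183W WM1119 library 2 to 11 without WT WM1119 library 3. Complement genes ranged from 1 higher without R183W WM1119 library 1 to 3, as with all libraries. The call of CLU held with each of the 11 libraries left out in turn. Those of IFITM3, OAS1, OASL and CFI were lost without R183W WM1119 library 1 or 2 (edgeR adjusted p = 0.0662 to 0.27). OAS1, OASL and CFI were also lost without R183W vehicle library 1, 2 or 3 (0.0516 to 0.163). OAS1 was lost as well without WT WM1119 library 2 or WT vehicle library 1, 2 or 3 (0.0532 to 0.0734).

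**Figure D4:**
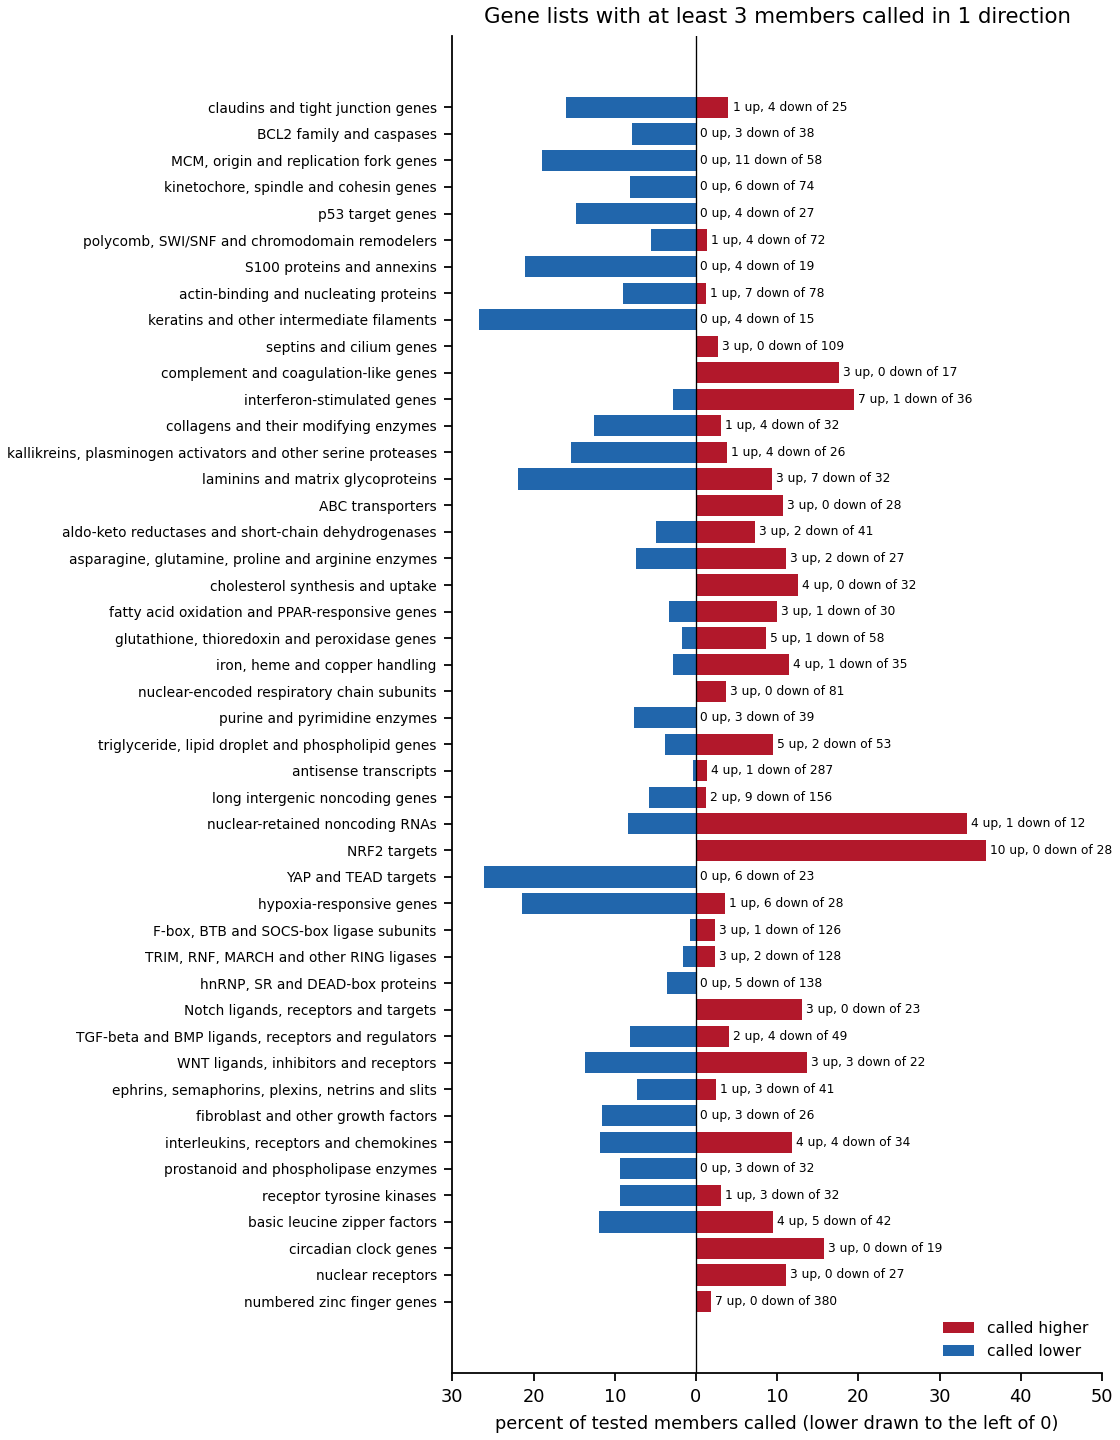
Percent of tested members called higher (red, right of 0) and lower (blue, left of 0) in 46 gene lists with at least 5 members tested and at least 3 called in 1 direction, with the counts printed beside each bar. NRF2 targets have the highest share called higher (10 of 28) and keratins the highest share called lower (4 of 15) among these lists.

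There were 7 lists of at least 20 tested genes with no member called by edgeR: receptor and other tyrosine phosphatases (22 genes), variant histones and histone chaperones (24), TCA cycle and pyruvate enzymes (35), mitochondrial ribosomal proteins (72), translation factors (67), Toll-like, NOD-like and inflammasome genes (30) and small nucleolar RNA host genes (27). At an unadjusted p under 0.05, 0 to 4 members of each were higher and 1 to 8 lower. DESeq2 called up to 2 members higher and up to 2 lower in these lists, and limma-voom up to 1 higher and up to 1 lower. Their medians ran from -0.30 to 0.10. These counts of 0 moved with the libraries fitted, most of all with WT WM1119 library 3. Without WT WM1119 library 3 edgeR called 7 variant histones and chaperones, 6 translation factors, 3 TCA cycle enzymes, 2 tyrosine phosphatases and 1 small nucleolar RNA host gene lower, and 2 TCA cycle enzymes, 1 variant histone or chaperone and 1 Toll-like or related gene higher. Without WT WM1119 library 1 it called 1 variant histone or chaperone higher, and without R183W WM1119 library 1 it called 1 translation factor lower. The 5 R183W libraries alone gave 9 variant histones and chaperones, 10 translation factors, 7 small nucleolar RNA host genes, 4 TCA cycle enzymes, 2 mitochondrial ribosomal proteins, 2 tyrosine phosphatases and 1 Toll-like or related gene lower, and 4 translation factors, 3 TCA cycle enzymes and 1 Toll-like or related gene higher. Of the 140 lists, 122 had a called member, and 308 of the 660 called genes were in none of them.

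Called genes that are neighbours among the tested genes, in the order of RefSeq on GRCh38.p14, moved in the same direction in some cases. Of 12830 adjacent pairs, 13 had both genes higher, 23 both lower and 12 a higher beside a lower gene. Of the 12855 tested genes that could be placed, 624 were called. How many such pairs that share alone would give was not worked out. Which pairs are named here was chosen after their values were seen. CAV1 and CAV2, the caveolins that form a complex in caveolae, fell from 169, 201 and 236 CPM to 66.9 and 59.8 CPM (log2 change -1.67, SE 0.17, edgeR adjusted p = 7.97e-05) and from 96.7, 111 and 104 CPM to 61.4 and 59.2 CPM (log2 change -0.78, SE 0.16, edgeR adjusted p = 0.00993). GUCY1A1 and GUCY1B1, the 2 subunits of soluble guanylate cyclase, rose from 14.5, 13.7 and 14.4 CPM to 36.7 and 27.8 CPM (log2 change 1.18, SE 0.23, edgeR adjusted p = 0.00987) and from 78.5, 79.2 and 69.8 CPM to 148 and 164 CPM (log2 change 1.04, SE 0.16, edgeR adjusted p = 0.00187). In these pairs both subunits of a complex moved the same way without overlap between the groups. PADI1, a peptidylarginine deiminase, fell from 16.2, 19.5 and 10.3 CPM to 1.68 and 2.11 CPM (log2 change -3.01, SE 0.43, edgeR adjusted p = 0.00114). Its neighbour and paralog PADI3 fell from 11.7, 8.56 and 8.11 CPM to 0.72 and 0.906 CPM (log2 change -3.52, SE 0.70, edgeR adjusted p = 0.00987). SLC6A13, a GABA transporter next to SLC6A12, rose from 6.76, 6.85 and 6.29 CPM to 24 and 22.7 CPM (log2 change 1.81, SE 0.27, edgeR adjusted p = 0.00182). FUT1, a fucosyltransferase, fell from 15.2, 18.2 and 17.2 CPM to 3.36 and 3.02 CPM (log2 change -2.39, SE 0.32, edgeR adjusted p = 0.000815) next to IZUMO1, a sperm protein (log2 change -2.25, SE 0.57, edgeR adjusted p = 0.037). FTH1 and BEST1 were an opposite pair, since BEST1, a chloride channel, had 60 counts with vehicle and 2 with WM1119, a ratio of 14.3 between the groups (95% counting interval 3.8 to 121) (edgeR adjusted p = 0.0134). Neighbours can share reads where they overlap, which the deposited table does not show. The calls of CAV1, GUCY1B1, PADI1, SLC6A13 and FUT1 held with each of the 11 libraries left out in turn. Those of CAV2, GUCY1A1, PADI3, IZUMO1 and BEST1 were lost without R183W WM1119 library 1 or 2 (edgeR adjusted p = 0.098 to 0.292). CAV2, IZUMO1 and BEST1 were also lost without R183W vehicle library 1, 2 or 3 (0.0506 to 0.1). IZUMO1 was lost as well without WT vehicle library 1, 2 or 3 (0.0503 to 0.0594).

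The genes named by rule were also set beside the same contrast in WT cells, which shares no library with the R183W contrast but shares its estimate of the spread. Of 207 called genes, 186 changed with the same sign in WT cells. The share with the same sign over all genes tested was not counted. The 207 were chosen by their change in R183W cells, and 185 changed by more there than in WT cells. Of the 207, 86 were called in the same direction in WT cells and 3 in the opposite direction. Over all genes WM1119 raised 346 (2.47%) and lowered 370 (2.65%) in WT cells. The difference between the genotypes was called for 9 of the 207, and for 40 of all 13980 genes (0.286%). FN1 rose in R183W cells and in WT cells read 468, 603 and 628 CPM with vehicle and 380, 347 and 225 CPM with WM1119 (log2 change -0.83, edgeR adjusted p = 0.0148). JAG1 likewise read 203, 214 and 242 and 150, 116 and 127 CPM in WT cells (log2 change -0.74, edgeR adjusted p = 0.00551). COL1A1, lower with WM1119 in R183W cells, read 580, 609 and 657 and 863, 819 and 850 CPM in WT cells (log2 change 0.46, edgeR adjusted p = 0.0381). These 3 are the genes of the 207 called in opposite directions. CYP1B1 changed by 2.10 in R183W and 0.78 in WT cells on the log2 scale (difference 1.31, SE 0.21, edgeR adjusted p = 0.019). ANKRD1 changed by -4.05 and -2.93 (difference -1.12, SE 0.23, 0.0588). The count of called differences was 2 and 1 without R183W WM1119 library 1 and 2, 0 by edgeR without R183W vehicle library 2 or 3 (1077 and 1120 with an unadjusted p below 0.05). Leaving out WT WM1119 library 3 gave 257. The differences of FN1, JAG1, COL1A1, CYP1B1 and the other 5 were each lost without R183W WM1119 library 1 and without library 2, and likewise without R183W vehicle library 2 and without library 3 (edgeR adjusted p = 0.051 to 0.403 over the fits in which they were lost). In WT cells the change of FN1 was lost without WT vehicle library 2 or 3 (0.0709 and 0.0775), that of COL1A1 without WT WM1119 library 2, any of the 3 WT vehicle libraries, either of the R183W libraries with WM1119, or R183W vehicle library 2 or 3 (0.0529 to 0.144), and that of JAG1 was not lost. For the genes whose difference was not called, a p above the threshold does not show that the genotypes responded alike.

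**Figure D5:**
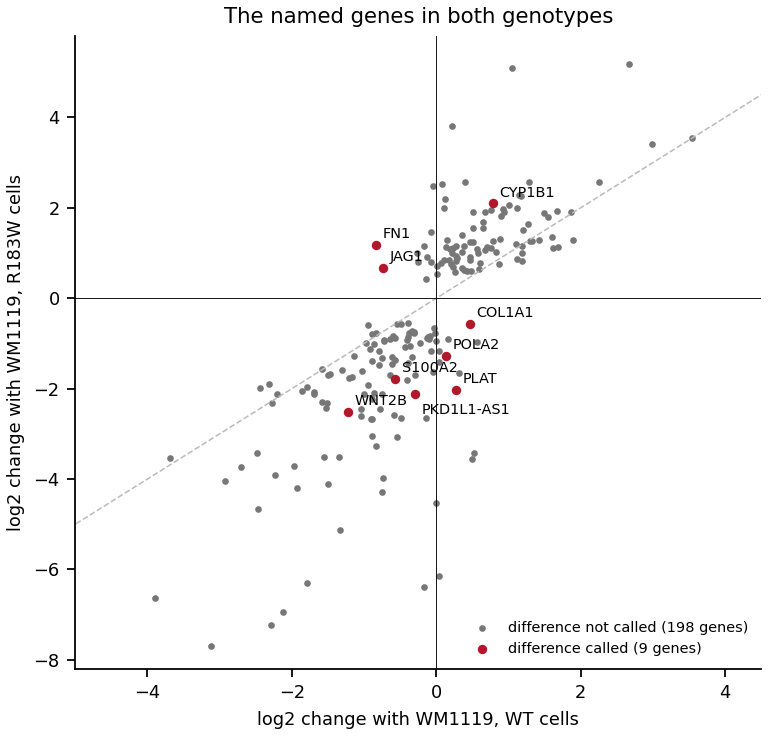
Log2 change with WM1119 in R183W cells (vertical axis) against WT cells (horizontal axis) for the 207 called genes named by rule. The dashed line marks equal change, and red points are the 9 genes whose difference between genotypes was called, among them FN1 and JAG1, above 0 in R183W and below 0 in WT cells.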

How the data were processed

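RNA was measured by sequencing in 11 HEC50B libraries, 5 of them R183W, from polyA RNA and a ScriptSeq Complete Gold kit per the labels. The deposited values are expected counts per Ensembl gene, which the authors left unnormalized as whole numbers. STAR, RSEM and hg19 are named in the submitters' processing notes, while versions, annotation and strand handling are not given in the sources used here. Symbols for 52301 of 57736 IDs came from the reference name table and GENCODE release 29, and IDs without one held 0.8897% of counts.

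Genes passing edgeR's filterByExpr (13980) were fitted with edgeR 4.0.16 in R 4.3.3, using TMM scaling, 4 group means over all 11 libraries and a quasi-likelihood test with Benjamini-Hochberg adjustment over all genes. The SE is the log2 change divided by the square root of the F statistic. Totals of 3323979 to 6065149 counts limit precision, and the common biological coefficient of variation was 19.6%. The test was checked on simulated data. Alternatives were DESeq2 1.42.0, limma-voom 3.58.1, RLE, upper-quartile and total scaling, other filters, the R183W libraries alone, a replicate block, each library left out, and, added after seeing the data, a GC correction.

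Named genes were KAT6A, KAT6B and PPP2R1A, the 25 largest non-overlapping log2 changes per direction at 2 CPM or more, the 10 largest CPM differences, the 5 largest long noncoding changes, and up to 4 called members of each described list. Described lists had at least 5 members tested and 3 called in a direction. The comparison, the rule and the 140 lists were chosen with earlier results of these data known. Some named genes and 1 described list are not reported here.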

Additional observations from a re-analysis of the deposited data

Results flagged for a closer look

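The WM1119 effect differed between R183W and WT cells, by the interaction term of the 4-group edgeR fit, for 9 of the genes named by rule. The difference subtracts the log2 effect in WT cells from that in R183W cells. It was 2.01 for FN1 (edgeR adjusted p = 0.0136), 1.41 for JAG1 (0.0136) and 1.31 for CYP1B1 (0.019), so these 3 responded with a higher value in R183W cells. Lower values in R183W cells were found for PLAT at -2.3 (0.0136), PKD1L1-AS1 at -1.84 (0.0415), POLA2 at -1.42 (0.0267), WNT2B at -1.29 (0.0141), S100A2 at -1.23 (0.0165) and COL1A1 at -1.02 (0.0261). FN1 and JAG1, an adhesive matrix protein and a Notch ligand, moved up in R183W cells and down in WT cells, and COL1A1 did the reverse. The difference was called for 0.286% of all genes tested. Each of the 9 was lost on leaving out R183W vehicle library 2 or 3 or either of the R183W libraries with WM1119, with adjusted p up to 0.403. In vehicle cells the genotypes already differed in level for FN1, at 61 to 73.4 CPM in R183W and 468 to 628 CPM in WT cells, and the part of that starting level in the difference was not tested.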

How the results depend on the processing

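Of 281 genes called higher, 379 lower and 40 differing between genotypes, DESeq2 called 435, 540 and 157, and the fit without a filter on low counts 455, 655 and 191. The 5 R183W libraries alone gave 1211 and 1280. RLE, upper-quartile and total scaling, the stricter filter, limma-voom and the GC correction stayed within 1.5 times of all 3 counts. With the replicate block, which the labels do not tie to a shared culture or day, the counts were 99, 162 and 0 (1021 genes at an unadjusted p under 0.05), together with the GC correction 130, 206 and 0 (1076), and in the R183W libraries alone 876 and 946. The deviations of same-numbered R183W libraries from their group means had correlations of -0.0411 and -0.0351 across genes. With 2 WM1119 libraries these deviations mirror each other, so the values cannot show whether same-numbered libraries shared a culture or day. With each library left out in turn the counts ran from 44 to 717 higher, 75 to 940 lower and 0 to 257 differing, the highest without WT WM1119 library 3 and the lowest without an R183W library. The 2 WM1119 libraries therefore limit most single calls: 43 of the 207 called genes were called in every such fit, and removing either leaves 1 sample assumed to vary like the other groups. DESeq2 also called 204 of the 207, limma-voom 178 and the replicate block 103. Among the named genes, the direction reversed only for KAT6A, at -0.00 in the R183W libraries alone with replicate block and -0.01 without R183W vehicle replicate 3. Its range with each library left out was -0.01 to 0.18. Among KAT6A, KAT6B and PPP2R1A, none of them called in the main fit, the alternatives other than left-out libraries gave a call 2 times. The cause of these shifts was not tested.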

Other observations

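Lists with fewer than 3 calls in a direction, left out of the report, held changes of the same kind in genes chosen here after their values were seen. Integrins, the receptors that hold cells to matrix, had a median log2 change of -0.67 with 2 of 18 called lower (11.1%, against 2.71% of all genes). With each library left out in turn, integrins ranged from 0 lower (6 at an unadjusted p under 0.05) without R183W WM1119 library 2 to 8 without WT WM1119 library 3. DESeq2 called 5 integrins lower and the 5 R183W libraries alone gave 10. ITGB5, a subunit of a vitronectin receptor, fell from 91.6, 78.5 and 75.6 CPM to 41 and 24.5 CPM (log2 change -1.31, SE 0.23, edgeR adjusted p = 0.00518), and ITGA1, a subunit of a collagen receptor, from 71.1, 66.6 and 74.8 CPM to 45.8 and 45.6 CPM (log2 change -0.63, SE 0.17, edgeR adjusted p = 0.0466). SERPINE2, a protease inhibitor, fell from 81.3, 76.2 and 82.3 CPM to 37.2 and 44.4 CPM (log2 change -0.97, SE 0.17, edgeR adjusted p = 0.00501). The EGF receptor ligand EREG, next to AREG on the chromosome, fell from 65.7, 76.4 and 72.4 CPM to 33.6 and 24.2 CPM (log2 change -1.30, SE 0.22, edgeR adjusted p = 0.00411). CDH16, a cadherin known from kidney and thyroid epithelium, rose from 55.1, 49 and 54.5 CPM to 131 and 121 CPM (log2 change 1.25, SE 0.21, edgeR adjusted p = 0.00411). In all 5 genes both WM1119 libraries lay outside the range of the vehicle libraries. All 5 calls were lost without R183W WM1119 library 1 or 2 (edgeR adjusted p = 0.0694 to 0.271). ITGA1 was also lost without R183W vehicle library 1, 2 or 3 or WT vehicle library 3 (0.0552 to 0.158).

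Of lysine acetyltransferases and acetyl-lysine readers, 2 of 51 (3.92%, against 2.01% of all genes) rose and 0 were called lower by edgeR, where 2 were lower at an unadjusted p under 0.05 and DESeq2 and limma-voom called 0. With each library left out in turn, acetyltransferases and readers ranged from 0 higher (6 to 10 at an unadjusted p under 0.05) without library 1 or 2 of R183W WM1119, or library 1 or 2 of R183W vehicle to 6 without WT WM1119 library 3. The higher count was 4 by DESeq2, 3 by limma-voom and 8 in the 5 R183W libraries alone, and 1 was called lower by edgeR without WT WM1119 library 3. The coactivator CREBBP, itself an acetyltransferase, rose from 103, 128 and 133 CPM to 195 and 194 CPM (log2 change 0.68, SE 0.15, edgeR adjusted p = 0.021), and NCOA1, a coactivator of nuclear receptors, from 9.07, 10.9 and 11.4 CPM to 19.9 and 19.3 CPM (log2 change 0.91, SE 0.22, edgeR adjusted p = 0.027). Of 17 clustered histone genes tested 2 rose (against 2.01% of all genes), H2BC12 and H2AC6, the latter from 5.61, 6.42 and 6.29 CPM to 22.1 and 19.6 CPM (log2 change 1.77, SE 0.27, edgeR adjusted p = 0.00193). Among 84 cytosolic ribosomal protein genes tested 1 was called, against 4.72% of all genes called either way. RPL28 rose from 90.4, 46.9 and 60.6 CPM to 251 and 216 CPM (log2 change 1.82, SE 0.28, edgeR adjusted p = 0.00255), while the list median was -0.06. The lowest RPL28 value, in vehicle library 2, and the highest, in vehicle library 1, differed less than the groups did. The calls of H2AC6 and RPL28 held with each of the 11 libraries left out in turn. Those of CREBBP and NCOA1 were lost without R183W WM1119 library 1 or 2 (edgeR adjusted p = 0.16 to 0.2). CREBBP and NCOA1 were also lost without R183W vehicle library 1, 2 or 3 (0.0639 to 0.104). NCOA1 was lost as well without WT vehicle library 2 (0.0504).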
